A study of Rattus norvegicus with 10 samples.

Results

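Most of the genes described here encode subunits of respiratory complexes II, III and IV and of complex V, the ATP synthase. The set also holds the pseudogene Cox6c-ps1, the complex V inhibitor Atp5if1 and Cox7a2l, which takes part in assembling supercomplexes. Transcripts were measured in RNA from the axons of rat sensory neurons. Members were the genes with a single symbol in the array's annotation that begins with Sdha to Sdhd, Uqcr, Cyc1, Cox4 to Cox8 or Atp5, and each was represented by its probe set with the highest mean over the 10 arrays. This gave 45 of the 14217 genes on the array, 4 in complex II, 8 in complex III, 17 in complex IV and 16 in complex V. The embryonic group held 5 arrays from E16 rat embryos (embryonic day 16) and the adult group 5 arrays from adult rats. In both groups explants of the dorsal root ganglion, which holds the cell bodies of sensory neurons, had been cultured for 4 days in a compartmented chamber, and only axons over 1 cm long from the outer compartment were taken. The labels name no strain, sex, adult age or number of animals per sample. They call the samples biological replicates. Probe sets annotated to several symbols were left out, among them those of Atp5mc1, Atp5mc2, Cox7a2 and Uqcrb, which are not analysed here.

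Oxidative phosphorylation makes most of the ATP of a neuron. Complex II oxidises succinate and passes electrons to ubiquinone, complex III passes them on to cytochrome c, and complex IV, cytochrome c oxidase, hands them to oxygen. Complexes III and IV pump protons, and complex V uses the returning protons to make ATP. Subunits of complexes III to V are encoded partly in the mitochondrial genome, but all the genes described here are nuclear. The mRNAs of those that encode proteins are translated in the cytosol. Some such mRNAs, that of Cox4i1 being a well-known case, are carried into axons and translated there, close to mitochondria that may lie far from the nucleus.

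Values are RMA values on the log2 scale, so a difference of 1 is a doubling, and every change is the adult minus the embryonic mean. Background was set on each array at the 95th percentile of 105 probe sets, those of 94 genes chosen as typical of other tissues. It lay between 2.99 and 4.29 on the 10 arrays. The arrays differed in how widely their values spread. In 4 of them, embryonic replicates 1 and 5 and adult replicates 4 and 5, the overall SD was 1.95 to 2.07 (here called wide), and in the other 6 it was 1.49 to 1.70 (narrow). The classes also differed without overlap in background, at 2.99 to 3.36 on wide and 3.76 to 4.29 on narrow arrays, and in the hybridisation controls, at 9.47 to 11.00 and 11.80 to 12.96. The part of these measures in results that follow the classes was not tested. Poly-A control transcripts, added to RNA before labelling, lay at 1.89 to 2.58 on embryonic and 7.86 to 12.02 on adult arrays, and a 5S ribosomal RNA control at 7.43 to 10.32 and 2.72 to 5.62. Neither overlapped between stages, so the effects of stage and of labelling cannot be told apart. In bulk axonal RNA, fewer axons and less RNA per axon cannot be told apart either.

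Transcripts of complexes III, IV and V were mostly at lower values in adult axons, while those of complex II showed no common direction. The nuclear subunit Cox6b1 of complex IV fell 3.96-fold, and was the member that passed the test across all genes. Of the 45 members, 1 was called lower by limma at an adjusted p of 0.05 and 0 were called higher, against 0.647% and 0.612% of all 14217 genes. At an unadjusted p under 0.05, 21 of 45 were lower and 0 higher, against 7.01% and 6.28% of all genes. The change was below 0 in 41 of 45 members, with a median of -1.07, whereas it was below 0 in 50.1% of all genes, with a median of -0.00086. Among the 7860 genes whose mean over all arrays exceeded the mean background level, 53.6% changed below 0 and the median was -0.08. The 38 members above the same level had 34 changes below 0 and a median of -1.10. Stages did not overlap for 7 members, all with the embryonic arrays above the adult ones, against 1.86% of all genes, and 0 members lay the other way, against 1.67%.

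**Figure D1:**
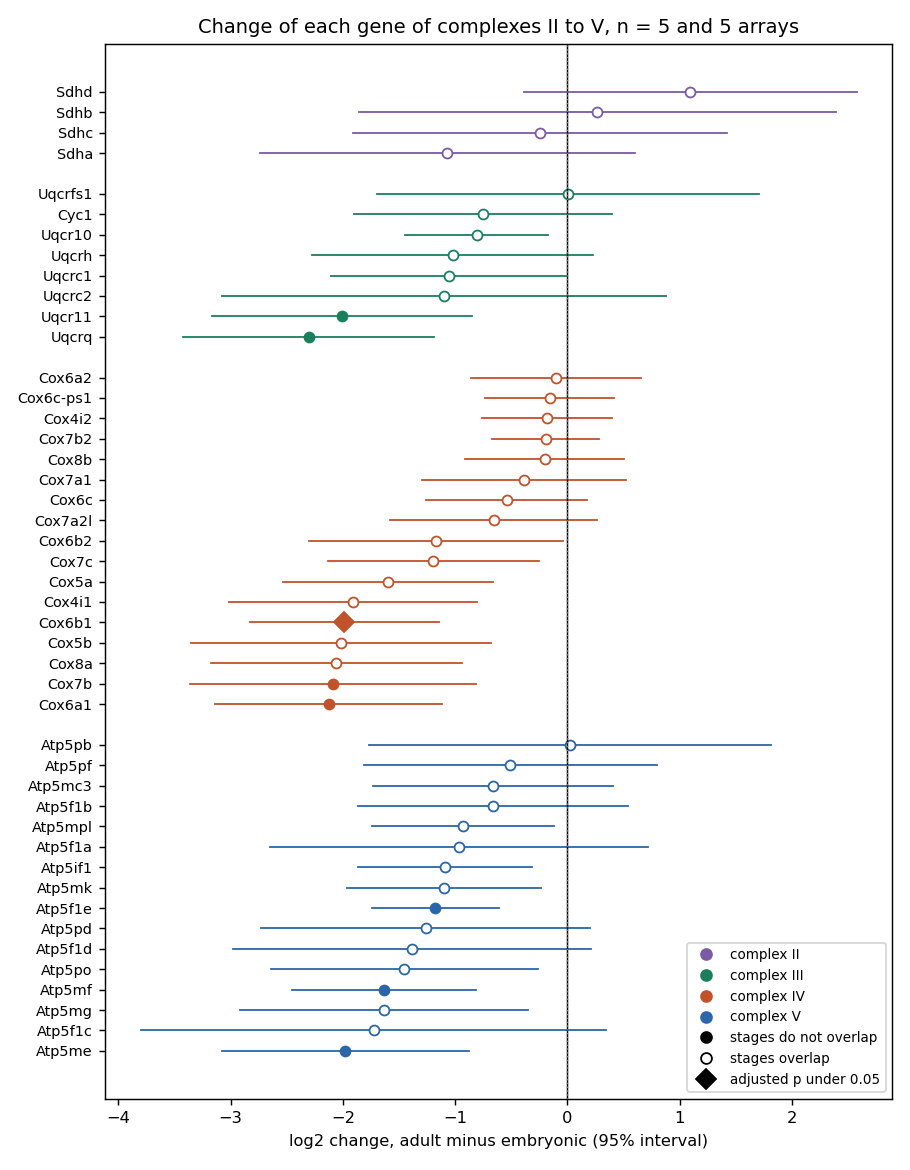
Change of each of the 45 genes on the log2 scale (adult minus embryonic, horizontal axis), with 95% confidence intervals from limma, grouped by complex. Filled circles mark genes whose stages do not overlap, the diamond marks Cox6b1, the gene with an adjusted p under 0.05, and the dotted line near 0 is the median of all genes. Most genes of complexes III to V lie left of 0, and those of complex II lie on both sides.

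The adult arrays differed among themselves more than the embryonic ones. The median value over the 45 members was 9.09, 8.92, 9.11, 8.74 and 8.86 on embryonic replicates 1 to 5, and 7.24, 6.90, 6.96, 8.32 and 8.68 on adult replicates 1 to 5. The 3 narrow adult arrays were the lowest, and the 2 wide ones lay just below the embryonic range. Per gene, the SD was larger in adult than in embryonic samples for 38 of 45 members (84.4%), against 63.2% of all genes. The median SD of a member was 0.45 in embryonic and 1.16 in adult samples.

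**Figure D2:**
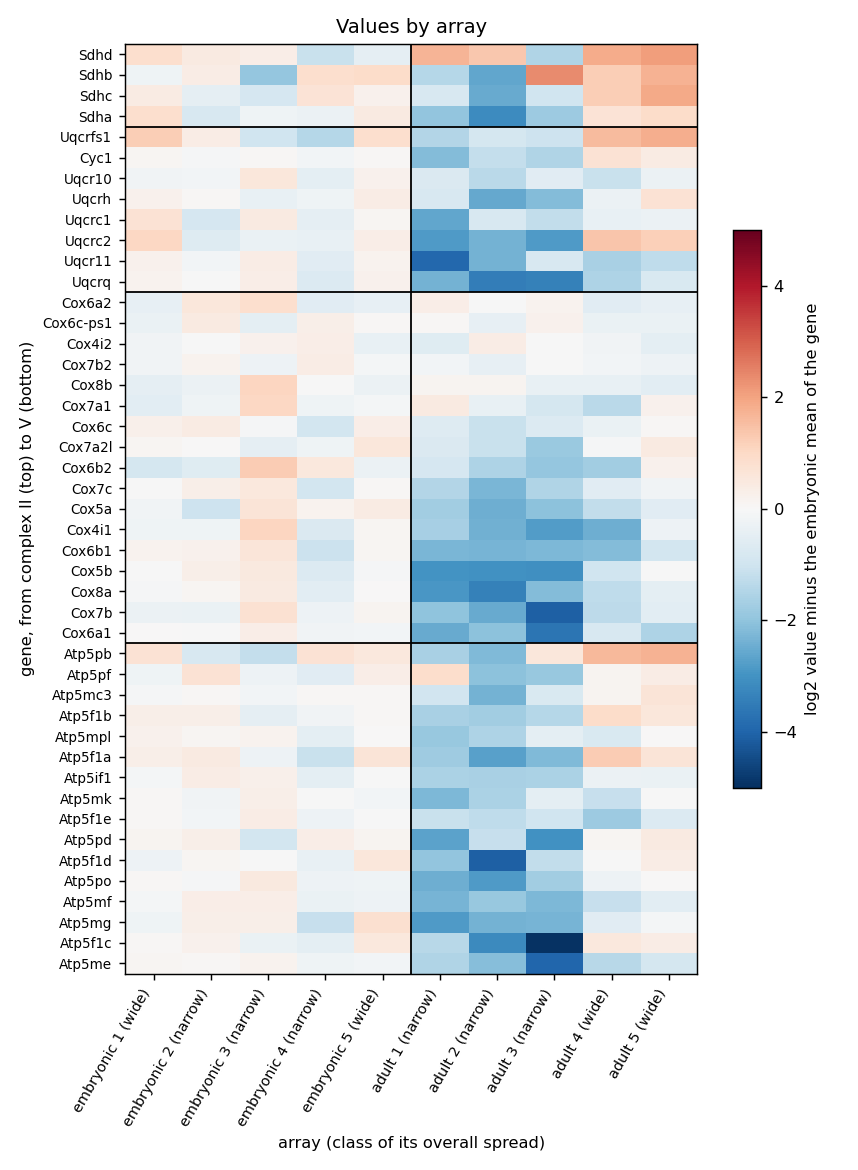
Value of each of the 45 genes on each array, as the log2 difference from the gene's embryonic mean (colour; blue lower, red higher), with genes in rows from complex II to V and arrays in columns with their class of spread. The narrow adult arrays 1 to 3 are blue for most genes of complexes III to V, and the wide adult arrays 4 and 5 are paler, with red for all genes of complex II.

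Complex II, succinate dehydrogenase, is encoded by 4 genes, and 0 of them passed the test by limma, at an unadjusted p under 0.05 as well. The changes ran from -1.07 to 1.10, 2 below and 2 above 0, with a median of 0.01 that was -0.04 with quantile and 0.25 with cyclic loess scaling. Sdhd, a membrane anchor of the complex, was at 6.68, 6.30, 6.17, 4.75 and 5.39 in embryonic replicates 1 to 5 and at 7.56, 7.22, 4.34, 7.70 and 7.94 in adult replicates 1 to 5. All adult arrays but replicate 3 were above the embryonic range. The change was 1.10 ± 0.67 (SE, n = 5 and 5; adjusted p = 0.70), and a further Sdhd probe set changed by 0.56 ± 0.42 (adjusted p = 0.78). Sdha, the flavoprotein that oxidises succinate, had an embryonic mean of 6.52 ± 0.65 (SD) and an adult mean of 5.45 ± 1.80 (adjusted p = 0.76). It was at 7.35, 5.72, 6.30, 6.23 and 6.98 in embryonic and at 4.54, 3.36, 4.70, 7.22 and 7.45 in adult samples, so the narrow adult arrays lay below the embryonic range and the wide ones near or above its top. Sdhb, the iron-sulfur subunit, was at 5.77, 6.37, 4.08, 6.86 and 6.93 in embryonic and at 4.58, 3.41, 8.37, 7.24 and 7.72 in adult samples. The adult arrays lay on both sides of the embryonic range, and the change of 0.27 had a 95% interval from -1.86 to 2.39. Sdhc, the other anchor, changed by -0.24, with an interval from -1.91 to 1.43. These intervals are too wide to show that the genes did not change.

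In complex III, 7 of 8 genes changed below 0, with a median of -1.04, and 0 of 8 passed the test by limma. At an unadjusted p under 0.05, 4 of 8 were lower, against 7.01% of all genes. Uqcrq, a small subunit near the ubiquinone site, was at 10.82, 10.63, 10.99, 9.95 and 10.86 in embryonic samples and at 8.28, 7.20, 7.27, 9.10 and 9.87 in adult samples. Every adult array was below every embryonic one, though adult replicate 5 came close to embryonic replicate 4. The change was -2.30 ± 0.51 (SE; 95% interval -3.42 to -1.18; adjusted p = 0.071), and it passed the threshold without adult replicate 5 (-2.69, adjusted p = 0.020). Uqcr11, another small subunit, was at 10.15, 9.79, 10.30, 9.36 and 10.09 in embryonic and at 6.0, 7.58, 9.12, 8.32 and 8.65 in adult samples. Here too the stages were apart, and the adult values were more scattered (-2.0 ± 0.52, adjusted p = 0.14). The remaining small subunits overlapped between stages. Uqcr10 was at 9.83, 9.84, 10.56, 9.50 and 10.22 in embryonic and at 9.25, 8.65, 9.44, 8.89 and 9.69 in adult samples (-0.81 ± 0.29, adjusted p = 0.33). The hinge protein Uqcrh was at 10.42, 10.27, 9.84, 9.998 and 10.59 in embryonic and at 9.41, 7.66, 8.05, 9.94 and 10.95 in adult samples (-1.02 ± 0.57, adjusted p = 0.64), with adult replicate 5 the highest of all. With cyclic loess scaling these changes were -0.36 and -0.57.

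The electron carriers and core proteins of complex III were less separated. Cytochrome c1, Cyc1, had an embryonic SD of only 0.11 (9.23 ± 0.11) and was at 8.48 ± 1.26 in adult samples, with adult values from 7.05 to 8.02 on narrow arrays and from 9.62 to 9.97 on wide ones. The Rieske iron-sulfur protein Uqcrfs1 was at 6.31 ± 1.16 and 6.31 ± 1.56, a change of 0.0070 with a 95% interval from -1.70 to 1.71. The core protein Uqcrc1 changed by -1.05 ± 0.47 (adjusted p = 0.50) and its partner Uqcrc2 by -1.10 ± 0.90 (adjusted p = 0.81). The median was -0.90 over these 4 redox and core subunits and -1.51 over the 4 small subunits, as a description with no test.

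In complex IV all 17 genes changed below 0, with a median of -1.17, but 7 of them, 6 isoforms known from other tissues and a pseudogene, had means below the background level. The 10 genes above it changed by -2.13 to -0.54, with a median of -1.95. Of these 10, 1 was called lower by limma, against 0.647% of all genes. At an unadjusted p under 0.05, 8 of the 10 were lower, against 7.01%. Cox6b1, a subunit on the side of the enzyme where cytochrome c docks, was at 10.84, 10.88, 11.29, 9.61 and 10.78 in embryonic replicates 1 to 5 and at 8.39, 8.37, 8.45, 8.53 and 9.76 in adult replicates 1 to 5. Of the adult arrays 4 were close together, and adult replicate 5 lay above embryonic replicate 4, so the stages overlapped by that pair. The means were 10.68 ± 0.63 (SD, n = 5) and 8.70 ± 0.60, a change of -1.99 ± 0.38 (SE; 95% interval -2.83 to -1.15; adjusted p = 0.043). The call was close to the threshold. It was lost in 14 of 22 refits (adjusted p from 0.015 to 0.28), among them those without embryonic replicate 1, 2, 3 or 5 or adult replicate 1, 2, 3 or 4, while the change stayed between -2.25 and -1.53. Without adult replicate 5, 6 members were called lower, Cox6b1, Cox4i1, Cox5b, Cox8a, Uqcrq and Atp5mf. Without embryonic replicate 4 it was 1, Cox6b1, without adult replicate 4 it was 1, Cox6a1, and without any other array 0. Over all 14217 genes the calls lower numbered 92 in the reported fit and 151 without adult replicate 5. They numbered 151 without embryonic replicate 4, 57 without adult replicate 4 and 53 to 76 without any other array.

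Among the other widely used complex IV subunits, Cox6a1, Cox7b, Cox8a, Cox5b and Cox4i1 had changes of -2.13 to -1.91 and larger adult SDs than Cox6b1, and Cox5a, Cox7c and Cox6c had smaller changes. Cox6a1, the liver-type isoform of subunit VIa, was at 10.62, 10.56, 10.94, 10.44 and 10.45 in embryonic and at 8.07, 8.54, 6.93, 9.78 and 9.06 in adult samples. The stages did not overlap, and the change was -2.13 ± 0.46 (adjusted p = 0.066). Cox7b, a small subunit encoded on the X chromosome, was at 8.94, 8.92, 10.01, 8.99 and 9.36 in embryonic and at 7.24, 6.71, 5.18, 7.92 and 8.73 in adult samples. Again no adult array reached the embryonic range (-2.09 ± 0.58, adjusted p = 0.17). Cox4i1, a subunit whose mRNA is known in axons, was at 10.09, 10.12, 11.39, 9.59 and 10.43 in embryonic and at 8.66, 7.93, 7.51, 7.90 and 10.05 in adult samples. Adult replicate 5 lay inside the embryonic range and the others below it (-1.91 ± 0.50, adjusted p = 0.14). Cox5b was at 9.59 to 10.76 in embryonic samples, at 7.24 to 7.28 on the narrow adult arrays and at 9.30 and 10.28 on the wide ones (-2.01 ± 0.61, adjusted p = 0.21). Cox8a, the widely used form of subunit VIII, was at 10.32, 10.45, 10.84, 9.86 and 10.39 in embryonic and at 7.44, 6.99, 8.19, 9.09 and 9.87 in adult samples, and the stages touched only at adult replicate 5 and embryonic replicate 4 (-2.06 ± 0.51, adjusted p = 0.11). Cox5a changed by -1.60 ± 0.42 (adjusted p = 0.14). Cox5a was above background on all embryonic arrays but on 2 of 5 adult arrays. The Cox5a probe set used had a mean of only 4.99 over the 10 arrays. A further one, annotated to several symbols, was left out.

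Cox7c changed by -1.19 ± 0.42 (adjusted p = 0.33), with adult values that reached into the embryonic range. Cox6c was at 10.93, 11.09, 10.63, 9.78 and 11.04 in embryonic and at 10.06, 9.57, 10.01, 10.36 and 10.76 in adult samples. Its stages overlapped (-0.54 ± 0.33, 95% interval -1.26 to 0.18, adjusted p = 0.69). Cox7a2l, which takes part in assembling complexes III and IV into supercomplexes, was at 10.67, 10.62, 10.13, 10.37 and 11.13 in embryonic and at 9.88, 9.48, 8.72, 10.52 and 11.04 in adult samples (-0.66 ± 0.42, adjusted p = 0.72). With quantile and cyclic loess scaling the changes were -0.22 and -0.051 for Cox6c and -0.41 and -0.18 for Cox7a2l. The median over the 9 widely used subunits was -1.99.

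**Figure D3:**
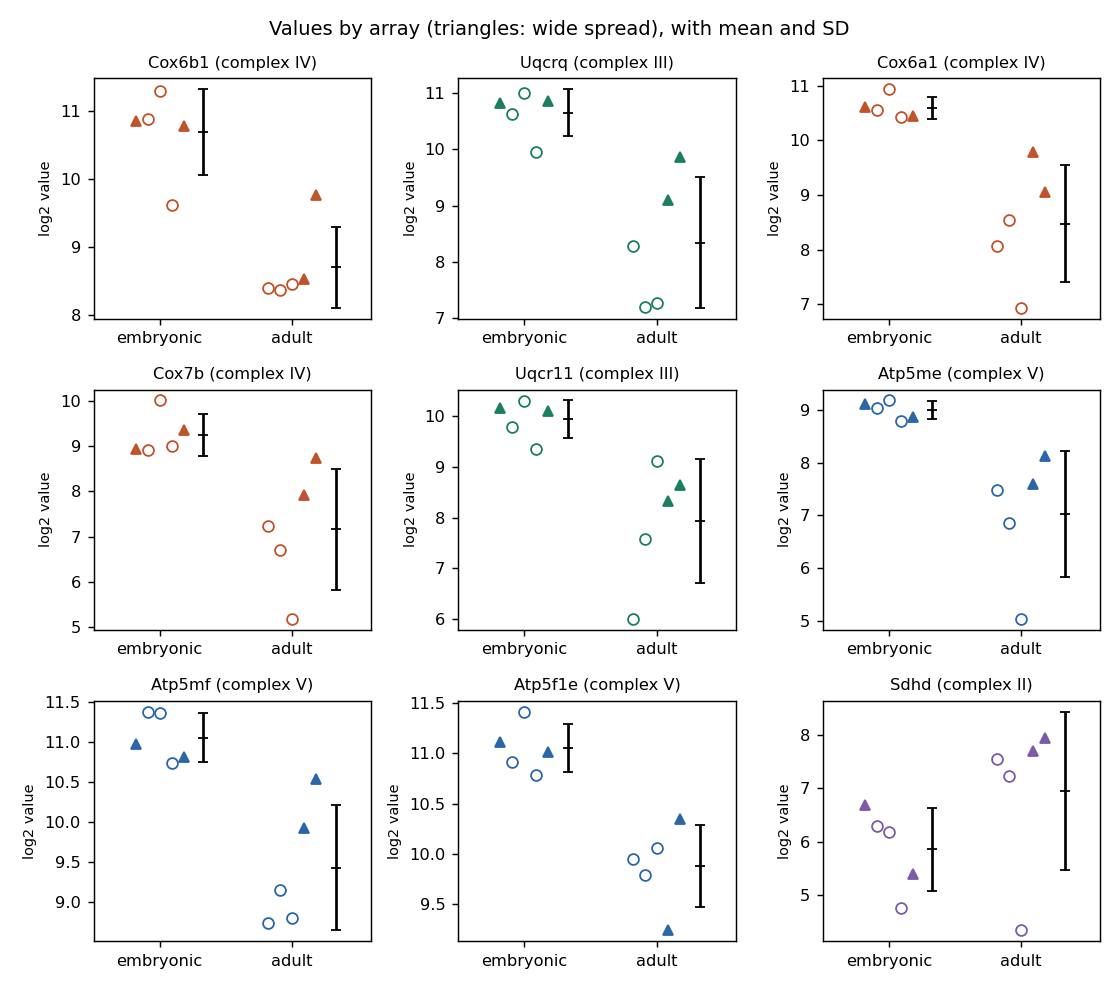
Log2 values on each of the 10 arrays for Cox6b1, for the 7 genes whose stages do not overlap and for Sdhd (triangles, wide arrays; open circles, narrow arrays; bars, mean and SD of 5 arrays). In the first 8 panels the adult arrays lie lower, with a single adult array of Cox6b1 inside the embryonic range, and in the Sdhd panel 4 of 5 adult arrays lie above all embryonic ones.

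Isoforms of complex IV known from other tissues were near background in both stages. Cox6a2 and Cox8b, forms of heart and skeletal muscle, Cox4i2, known from lung, and Cox7b2, known from testis, exceeded the background level on 0 of 10 arrays, as did the pseudogene Cox6c-ps1. Their values lay between 1.49 and 3.87. Cox7a1, also a muscle form, exceeded it on 3 embryonic and 2 adult arrays (3.78 ± 0.60 and 3.40 ± 0.74, SD, n = 5), and Cox6b2, known from testis, on 3 embryonic arrays and 1 adult array. Cox6b2 was at 2.88, 3.14, 5.04, 4.28 and 3.47 in embryonic and at 2.92, 2.20, 1.83, 2.04 and 3.96 in adult samples (-1.17 ± 0.51, adjusted p = 0.48). At these values a change could hardly be seen, and RMA compresses differences. The signal that could be followed came from the widely used forms Cox4i1, Cox6a1, Cox6b1 and Cox8a. In all, 38 of 45 members were above background on every embryonic array and 31 on every adult array.

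In complex V, 15 of 16 genes changed below 0, with a median of -1.14, and 0 passed the test by limma. At an unadjusted p under 0.05, 8 of 16 were lower, against 7.01% of all genes. The F1 head makes ATP, and its small subunit Atp5f1e was at 11.11, 10.92, 11.42, 10.78 and 11.02 in embryonic and at 9.95, 9.79, 10.06, 9.24 and 10.35 in adult samples. The stages were apart and the scatter was small in both (-1.17 ± 0.26, 95% interval -1.74 to -0.61, adjusted p = 0.070). The size depended on the scaling, with -0.79 (adjusted p = 0.46) after quantile and -0.68 (adjusted p = 0.59) after cyclic loess scaling. The catalytic subunit Atp5f1b (-0.66 ± 0.54, adjusted p = 0.82) and its partner Atp5f1a (-0.96 ± 0.76, adjusted p = 0.80) overlapped between stages. The rotor subunit Atp5f1c changed by -1.72 ± 0.94 (adjusted p = 0.63). It was at 9.50, 9.65, 9.11, 8.95 and 9.96 in embryonic and at 8.04, 6.23, 4.50, 9.96 and 9.82 in adult samples, with the wide adult arrays at or near the top of the embryonic range and the narrow ones below it. Atp5if1, which inhibits the enzyme when it would run backwards, changed by -1.09 ± 0.35 (adjusted p = 0.25).

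The part of complex V in the membrane had 5 of 6 genes lower at an unadjusted p under 0.05, against 7.01% of all genes. Atp5me, subunit e, was at 9.11, 9.04, 9.17, 8.79 and 8.86 in embryonic and at 7.47, 6.86, 5.04, 7.59 and 8.12 in adult samples. The embryonic values lay close together and above every adult value (-1.98 ± 0.50, adjusted p = 0.12), and a further Atp5me probe set was above background on 0 of 10 arrays. Atp5mf, subunit f, was at 10.97, 11.38, 11.37, 10.73 and 10.82 in embryonic and at 8.73, 9.15, 8.79, 9.92 and 10.54 in adult samples. These stages did not overlap either (-1.63 ± 0.37, adjusted p = 0.082). Atp5mg, subunit g, exceeded background on all 5 embryonic arrays but on only 2 of the adult ones (-1.63 ± 0.58, adjusted p = 0.32), and Atp5mk and Atp5mpl changed by -1.10 and -0.93. Atp5mc3, a gene for the c-ring that turns in the membrane, had an embryonic mean of 10.26 ± 0.086 (SD) and an adult mean of 9.60 ± 1.16 (adjusted p = 0.78). Of the peripheral stalk, which keeps the head from turning, Atp5po changed by -1.45 (adjusted p = 0.36), Atp5pd by -1.26, Atp5pf by -0.51 and Atp5pb by 0.02, and the last had a 95% interval from -1.77 to 1.81.

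Within the narrow arrays nearly all members had lower adult values, and within the wide arrays the complexes differed in direction. The stages still differed in overall SD inside each class. On narrow arrays it was 1.49 to 1.63 in adult and 1.67 to 1.70 in embryonic samples. On wide arrays it was 2.05 and 2.07 in adult and 1.95 and 1.96 in embryonic samples. Stage and spread thus cannot be told apart inside a class, nor with the class as a block or in the test between classes. In the 6 narrow arrays 44 of 45 members changed below 0, with a median of -1.64 against -0.05 over all genes, and 3 were called lower by limma, Cox5b (-3.06, adjusted p = 0.031), Atp5mf (-2.27, 0.044) and Uqcrc2 (-2.23, 0.033), against 0.717% of all genes. In the 4 wide arrays 30 of 45 members changed below 0, with a median of -0.17 against 0.02 over all genes. The 7860 genes with a mean above background had medians of -0.28 in narrow and 0.24 in wide arrays. The 38 members above it had medians of -1.81 and -0.33. Within the wide arrays 0 members were called, as were 0% of all genes. At an unadjusted p under 0.05, 5 members were lower and 3 higher there, against 7.75% and 12.0% of all genes. In the wide arrays the 10 complex IV genes above background changed by -1.67 (Cox6b1) to -0.12, with a median of -0.85. All 4 of complex II changed above 0 there, from 0.17 to 1.79. Of complex III 5 genes were below and 3 above 0, and of complex V 8 were below and 8 above. In all, 11 members that changed below 0 over the 10 arrays changed above 0 within the wide ones, 7 of them in complex V, 2 in complex III and 2 in complex II. The medians in narrow and wide arrays were -0.78 and 1.20 for complex II, -1.61 and -0.40 for complex III, -1.72 and -0.40 for all 17 genes of complex IV, and -1.78 and -0.0037 for complex V. A test of whether the change differs between the classes of arrays called 0 of 45 members by limma, against 0.0914% of all genes, with 19 at an unadjusted p under 0.05, against 12.9% of all genes. With the class as a block, 3 members were called lower, against 1.13% of all genes: Uqcrq (-2.30, adjusted p = 0.026), Cox6b1 (0.032) and Cox6a1 (0.045).

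**Figure D4:**
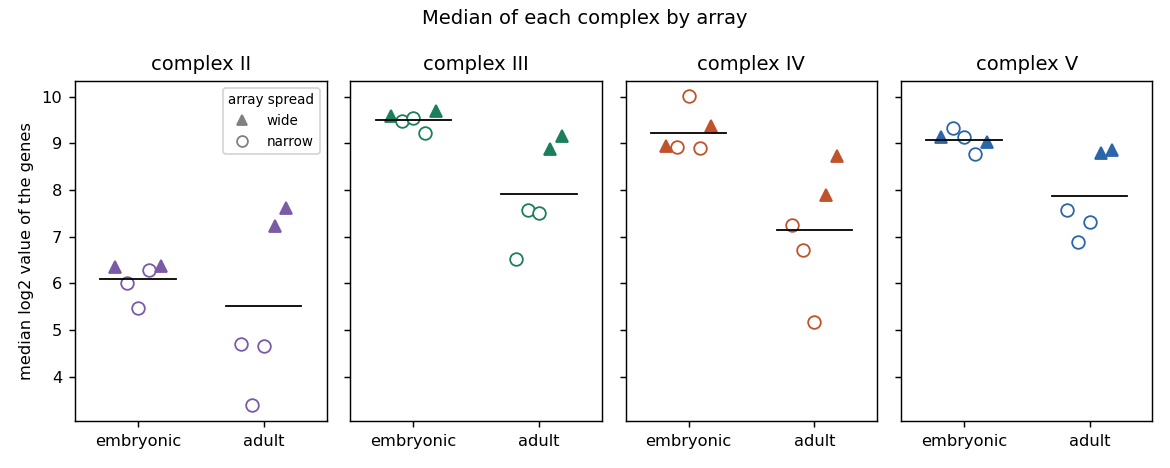
Median log2 value over the genes of each complex on each array, by stage (triangles, wide arrays; open circles, narrow arrays; line, mean of 5 arrays). In complexes III, IV and V the narrow adult arrays lie below every embryonic one, and in complex II the wide adult arrays lie above them, at 7.23 and 7.62.

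**Figure D5:**
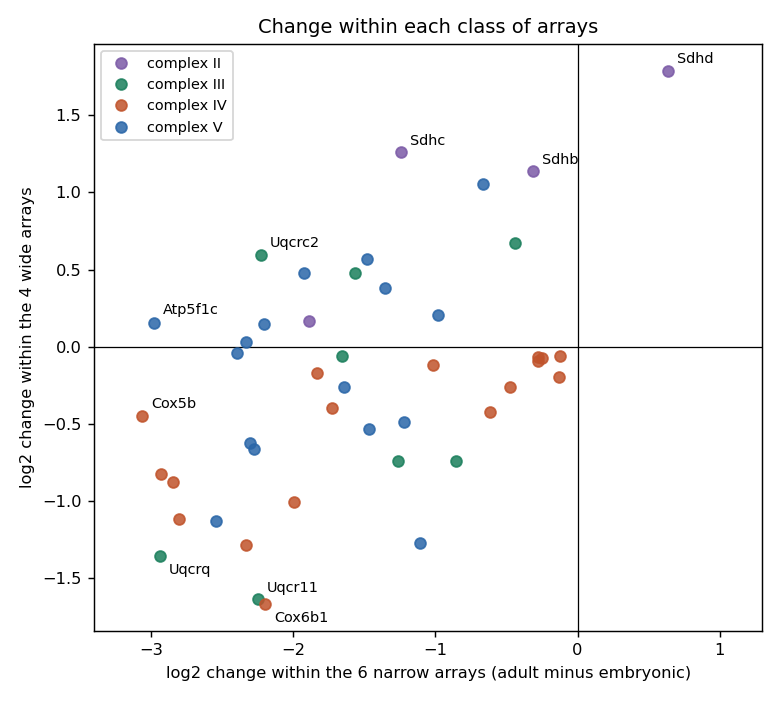
Log2 change of each gene within the 6 narrow arrays (horizontal) and within the 4 wide arrays (vertical), coloured by complex. The classes share no array. Genes of complex IV lie below 0 on both axes, those near the origin being at or near background, and all genes of complex II lie above 0 on the vertical axis.

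The promoters of these genes were read as a feature that the choice of members did not use. RefSeq sequence of the GRCr8 build, from 250 bases before to 50 bases after the start of the gene, was given for 38 of the 45 members. Short motifs of factors known to drive nuclear genes of the respiratory chain were searched on both strands: CCGGAAG, the core bound by the ETS family with GABPA, TGCGCATGC for NRF1 and AAGATGGCG for YY1. The ETS motif ends with the AAG that begins the YY1 motif, so matches of the 2 could overlap. Of the 38 windows 13 held the ETS motif (34.2%), against 14.2% of the 13192 windows of genes on the array and 8.75% of all 33469 windows. The NRF1 motif was in 2 (5.26%, against 2.27% and 1.39%) and the YY1 motif in 3 (7.89%, against 2.93% and 1.73%). Of the 5 windows of tissue-restricted isoforms, 0 held any of them. The remaining 33 members had a median change of -1.10 where the ETS motif was present (13 genes) and -1.08 where it was not (20 genes), with ranges of -2.30 to 1.10 and -2.09 to 0.02, as a description with no test. The 150 bases before the start are shown for 3 genes with an ETS match and stages that were apart or nearly so (Cox8a, Uqcrq and Atp5me), for Cox5b, which was lower on the narrow arrays, for Sdhd, which has a match and a change above 0, and for the muscle isoform Cox8b and for Cox6b1, without a match in the window. These genes were chosen after their values were seen. Capitals mark the ETS motif on either strand.
Cox8a: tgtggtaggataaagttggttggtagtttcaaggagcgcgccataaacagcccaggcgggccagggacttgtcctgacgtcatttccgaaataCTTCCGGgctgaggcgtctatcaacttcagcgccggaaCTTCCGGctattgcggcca
Uqcrq: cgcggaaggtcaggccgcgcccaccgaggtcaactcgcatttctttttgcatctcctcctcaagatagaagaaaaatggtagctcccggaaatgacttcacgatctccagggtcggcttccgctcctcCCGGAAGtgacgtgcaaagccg
Atp5me: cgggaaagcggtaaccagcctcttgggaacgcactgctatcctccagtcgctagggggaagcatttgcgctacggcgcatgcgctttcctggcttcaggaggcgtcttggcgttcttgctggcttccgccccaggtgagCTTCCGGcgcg
Cox5b: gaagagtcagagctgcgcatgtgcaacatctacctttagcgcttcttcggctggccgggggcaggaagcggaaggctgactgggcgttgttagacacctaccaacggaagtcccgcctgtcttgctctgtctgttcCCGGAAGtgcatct
Sdhd: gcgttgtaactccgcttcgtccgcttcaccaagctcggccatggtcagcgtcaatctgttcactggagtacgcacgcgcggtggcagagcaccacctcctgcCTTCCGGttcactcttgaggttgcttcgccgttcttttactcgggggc
Cox8b: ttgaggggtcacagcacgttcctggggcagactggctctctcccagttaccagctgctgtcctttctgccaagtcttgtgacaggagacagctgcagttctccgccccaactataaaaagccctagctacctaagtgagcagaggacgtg
Cox6b1: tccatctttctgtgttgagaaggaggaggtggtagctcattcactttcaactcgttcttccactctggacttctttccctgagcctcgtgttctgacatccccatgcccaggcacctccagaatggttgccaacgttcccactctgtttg
All are written 5′ to 3′ along the gene's strand. For Uqcrq, Atp5me, Cox5b and Cox6b1 the gene table of RefSeq spans a start further upstream than the one of the window. They lie at chr1:213833624-213833773, minus strand (Cox8a), chr10:38089979-38090128, minus strand (Uqcrq), chr14:1464710-1464859, plus strand (Atp5me), chr9:46417687-46417836, plus strand (Cox5b), chr8:59850642-59850791, minus strand (Sdhd), chr1:205408274-205408423, minus strand (Cox8b) and chr1:95009853-95010002, minus strand (Cox6b1).

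Other genes of the same pathway were read from the same fit. Of all genes, that fit called 0.647% lower and 0.612% higher. At an unadjusted p under 0.05, 7.01% of all genes were lower and 6.28% higher. Complex I is the other entry of electrons into the chain. A list of 36 genes taken by their Nduf symbols, without assembly factors, had 34 changed below 0, with a median of -1.19. Of these 36, 0 were called by limma, with 15 lower and 0 higher at an unadjusted p under 0.05. The list rests on names alone. It takes in Ndufa4 (-1.26) and Ndufa4l2 (0.05, above background on 0 embryonic and 0 adult arrays), which need not be subunits of complex I. The median of this list was -1.83 in narrow and -0.21 in wide arrays. The medians of complexes II to V were also lower in narrow than in wide arrays. So was that of all genes with a mean above background (-0.28 and 0.24). Factors that assemble complexes II to V had a median of -0.18 over 35 genes of 39 listed and 0 called, with 2 lower at an unadjusted p under 0.05. Enzymes of the citric acid cycle and pyruvate dehydrogenase had a median of -0.56 over 15 of 19 genes and 0 called, with 1 lower and 1 higher at an unadjusted p under 0.05. Quinone synthesis, biogenesis and related genes had a median of 0.0011 over 25 of 33 genes and 0 called, again with 1 lower and 1 higher at an unadjusted p under 0.05. Among them the regulators Ppargc1a (0.20 ± 0.39, adjusted p = 0.95), Nrf1 (0.045 ± 0.52, adjusted p = 0.99), Tfam (0.40 ± 0.84, adjusted p = 0.96) and Gabpa (1.75 ± 0.64, adjusted p = 0.35) did not pass the test. Ppargc1a exceeded background on 0 embryonic arrays and 1 adult array, Nrf1 and Tfam on 2 and 2, and Gabpa on 2 and 4. Vacuolar proton pumps, which share only part of their name with complex V, had a median of -0.08 over 20 genes, and 1 rose, Atp6v0e1, a membrane subunit of that pump (2.50 ± 0.35, adjusted p = 0.0089).

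Markers of the cells that the axonal RNA could hold moved with stage as well. The counts below stand beside 0.647% of all genes called lower by limma and 0.612% called higher. At an unadjusted p under 0.05 these shares were 7.01% and 6.28%. Of 15 sensory neuron markers, 4 fell and 0 rose, with the largest changes in the cytoskeletal genes Prph (-4.32 ± 0.71, adjusted p = 0.020), Nefl (-3.72 ± 0.69, 0.036) and Nefm (-3.42 ± 0.53, 0.014). Of these 15 markers, 11 were above background on every embryonic array and only 8 on every adult array. Their summed level on the linear scale was 4726 to 21321.4 on embryonic and 1506 to 7385 on adult arrays. Of 12 macrophage markers, 7 rose and 0 fell, led by Adgre1 (6.69 ± 0.75, adjusted p = 0.0022), Lyz2 (6.69 ± 0.75, 0.0022) and Ptprc (4.91 ± 0.59, 0.0039), and the summed level was 134 to 1779 on embryonic and 5567 to 11909.7 on adult arrays. Of them, 2 were above background on every embryonic array and 10 on every adult array. Schwann cell markers (8 genes) had a summed level of 218 to 710 and 533 to 4405, and fibroblast markers (8 genes) of 120 to 910 and 80.7 to 3245, with 0 called in either list by limma, where 0 and 1 were lower and 2 and 2 higher at an unadjusted p under 0.05. The fibroblast sum followed the class of arrays, with 80.7 to 950 on narrow and 2389 to 3245 on wide adult arrays, against 635 to 910 on narrow and 120 to 405 on wide embryonic ones. Within narrow arrays Postn was called lower (-5.88, adjusted p = 0.0033), and for Lum the change differed between the classes (7.13 in wide and -0.93 in narrow arrays, adjusted p = 0.041), both named after their values were seen. Of 11 markers of striated muscle, 9 were above background on 0 of 10 arrays, and 0 were called by limma, with 2 lower at an unadjusted p under 0.05. Their summed level was 4138 to 5809 on embryonic and 537 to 2286 on adult arrays, and it came mostly from Myh1 (12.20 ± 0.21 and 10.27 ± 0.96, SD). Of 3 red cell markers, 1 fell, the embryonic globin Hbe1 (-3.12 ± 0.46, adjusted p = 0.011), and the summed level was 270 to 1410 and 20.4 to 209. The part of the neuron, macrophage, fibroblast, muscle and red cell signals in the lower values of respiratory genes was not tested.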

How the data were processed

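RNA of 10 samples, 5 per stage, was measured on Affymetrix rat whole-genome arrays. The authors deposited log2 values computed by RMA, per the submitters' processing notes. The notes give neither a version nor options, nor say if the arrays went through RMA as 1 set. The base of the logarithm was read from the range of the values, 1.10 to 14.58. Precision is limited by how few arrays there are.

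The table held 31099 probe sets, 57 of them controls. By the platform annotation 20826 have a single symbol, 436 several, and 9780 stay unnamed here. Gene numbers of all 45 members were looked up in RefSeq's gene table (GRCr8). The linear model was that of limma (version 3.58.1, under R 4.3.3; lmFit, then eBayes), two-sided and without a filter, and p was adjusted by Benjamini-Hochberg over 31042 probe sets. Percentages of all genes refer to 14217 genes, each with its probe set of highest mean. The fit was run on simulated data with independent noise. These held no classes of arrays, so they cannot show how the fit performs on the present arrays. Motif and summary counts were made with Python 3.11.15 and pandas 2.3.3, and figures with matplotlib 3.10.9.

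Every member may be named. Values by array are given by a rule: the called genes, the 2 of highest mean and the 2 of largest change in each complex, those without overlap and the isoform pairs, except that isoforms near background are given by means or ranges. Cyc1, Uqcrfs1, Cox5b, Uqcrc1, Uqcrc2 and others with values were added after their values were seen, as were the subgroups by structural role, the interaction test, the comparison of SDs and the counts within classes of arrays. Members and lists were chosen with earlier results of these data known, so no list was tested as a set. The split into wide and narrow arrays also came from those earlier results. Alternatives were other scalings, a filter on weak values, other variance settings, array weights, blocks by replicate number and by spread class, each class alone, other choices of probe set, other thresholds and the omission of each array.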

Additional observations from a re-analysis of the deposited data

Results flagged for a closer look

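In 6 of 98 groups of 5 arrays (45 members and 4 complex medians, in each stage), 1 array stood apart from the other 4 by Dixon's criterion, and chance gives about 4.9. Cox6b1 on adult replicate 5 was at 9.76, with the others at 8.37 to 8.53. Sdhd on adult replicate 3 was at 4.34, with the others at 7.22 to 7.94. Atp5pd on embryonic replicate 3 was at 7.46, with the others at 8.49 to 8.70. Atp5mpl on embryonic replicate 4 was at 7.78, with the others at 8.29 to 8.49. Cox7a1 and Cox8b on embryonic replicate 3 were at 4.83 and 3.80, with the others at 3.27 to 3.68 and 2.31 to 2.70.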

How the results depend on the processing

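The count of members called lower, 1 in the reported fit, was 5 with quantile scaling, 2 with cyclic loess, 0 with median scaling, 3 with a filter on weak values, 0 with an intensity trend and robust variance, 3 with array weights, 3 with the spread class as a block, 0 within wide and 3 within narrow arrays, 5 at an adjusted p of 0.10 and 0 to 6 over the omissions of 1 array. By absence of overlap it was 7. No member was called higher in any refit, all by limma. With shared-sequence probe sets left out or the median of a gene's probe sets it stayed at 1. Calls lower over all 14217 genes moved as well, from 92 in the reported fit. They numbered 128 with quantile scaling, 97 with cyclic loess, 76 with median scaling and 159 of 7701 genes with the filter. With the intensity trend they numbered 70, with array weights 130 and with the spread block 161. Within wide arrays they numbered 0, within narrow ones 102, and over the omissions 53 to 151. At an adjusted p of 0.10 they were not counted, so the 5 members there have no share of all genes beside them.

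The median over members moved from -1.07 to -0.17 within wide arrays and to -0.68 with cyclic loess scaling, and was -1.36 to -0.78 over the omissions. With cyclic loess those of complexes III, IV and V were -0.63, -0.77 and -0.69, and that of complex IV was -1.91 with the filter, which leaves fewer genes. That of complex V moved from -1.14 to -0.0037 within wide arrays. Over the omissions the medians were -0.44 to 0.66 (complex II), -1.35 to -0.73 (III), -1.45 to -0.85 (IV) and -1.40 to -0.94 (V). As percentile ranks within each array, the median change over members was -2.19 points, and -4.12, -1.72, -2.32 and -1.97 points for complexes II to V. By rank complex II thus fell most, unlike its log2 median of 0.01. Its array medians were at 85.9 to 90.8 in embryonic and 57.7 to 94.1 in adult samples. Those of complexes III to V were at 98.3 to 99.5 in embryonic samples, near the top of the scale, so points are not comparable with complex II. Signs reversed for 11 of 45 members within wide arrays, among them Sdha (0.17), Sdhc (1.26), Cyc1 (0.47), Uqcrc2 (0.60), Atp5f1a (0.48), Atp5f1b (0.57), Atp5f1c (0.16) and Atp5mc3 (0.38), and for 3 within narrow arrays, Sdhb (-0.31), Atp5pb (-0.67) and Uqcrfs1 (-0.44). Over the omissions Sdhb ran from -0.26 to 0.98, Cox6a2 from -0.24 to 0.11 and Cox8b from -0.31 to 0.061. The cause was not tested.

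Genes of the complex I list called lower numbered 3 with quantile scaling, 2 with cyclic loess, 2 with the filter and 1 with array weights. They numbered 2 with the spread block, 4 within narrow arrays and 0 to 3 over the omissions. Within narrow arrays 1 assembly factor and 1 citric acid cycle gene were called lower, and Atp6v0e1 was called in neither class (0 within wide and 0 within narrow arrays).

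Deviations of same-numbered samples of the stages had correlations of -0.12, 0.05, 0.17, -0.11 and 0.28. Pairs of wide arrays were at 0.20 to 0.28 whatever their numbers. The correlations thus followed the class of spread and cannot tell whether same numbers mean a pairing. With the replicate block, 0 members were called lower, and 62 of all 14217 genes were. Members above background on all arrays numbered 38 to 38 (embryonic) and 31 to 36 (adult) over the omissions. Probe sets near background limit what could be seen of the tissue-restricted isoforms.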
